A study of Mus musculus with 2 samples.

Results

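Cxcl12, Cxcr4 and Ackr3 are 3 of the 32285 genes listed in a single-cell RNA sequencing study of the mouse retina. The 3 genes were taken by symbol, and were chosen with earlier results of these data known. They encode a chemokine and its 2 receptors. The study holds 1 library labelled Alk1 ECKO, in which Alk1 f/f pups carried the tamoxifen-inducible recombinase CreERT2 under control of the Cdh5 (VE-cadherin) gene, and 1 control library of Alk1 f/f pups for which no recombinase is labelled. Both came from retinas at postnatal day 6 whose cells were enriched with beads against CD31, an endothelial surface protein, and both genotypes carry the floxed Alk1 allele. The labels give neither the dose of an inducing drug nor the number of pups pooled in a library. With 1 library per genotype there is no replicate and no test. Intervals below are at the 95% level and cover only the error of counting, and each difference is one between these 2 libraries.

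CXCL12 (also called SDF-1) is a secreted chemokine that binds heparan sulfate and guides migrating cells. CXCR4 is its G protein-coupled receptor, which signals through inhibitory G proteins. ACKR3 (CXCR7) is an atypical receptor that binds CXCL12 with high affinity, recruits arrestins and removes the ligand by taking it into the cell. In the growing retinal vasculature, astrocytes form the scaffold that vessels follow, tip cells lead the sprouts, and CXCR4 is known as a tip cell gene and CXCL12 as an arterial one.

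In mm10 with GENCODE vM21, Cxcl12 (ENSMUSG00000061353) spans chr6:117168535-117181367 on the plus strand with 4 annotated transcripts. Cxcr4 (ENSMUSG00000045382) spans chr1:128588199-128592293 on the minus strand with 2 transcripts, and Ackr3 (ENSMUSG00000044337) spans chr1:90203980-90216751 on the plus strand with 2. No annotated gene overlaps any of the 3. The 250 bases before each start site (RefSeq, GRCm38.p6) are shown because Cxcr4 and Ackr3 were both higher in Alk1 ECKO than in control endothelial cells while Cxcl12 was lower. Capitals mark ACGTG or GCGTG (the hypoxia response core, searched on both strands), GGCGCC (an element bound by BMP-activated SMAD proteins, which reads the same on both strands) and TATAAA (searched on the gene's strand).
Cxcl12, chr6:117168285-117168534, plus strand: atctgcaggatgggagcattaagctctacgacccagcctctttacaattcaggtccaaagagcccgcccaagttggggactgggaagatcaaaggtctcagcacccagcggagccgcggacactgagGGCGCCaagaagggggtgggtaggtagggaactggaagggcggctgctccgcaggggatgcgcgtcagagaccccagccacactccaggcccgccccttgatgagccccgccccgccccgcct
Cxcr4, chr1:128592300-128592549, minus strand: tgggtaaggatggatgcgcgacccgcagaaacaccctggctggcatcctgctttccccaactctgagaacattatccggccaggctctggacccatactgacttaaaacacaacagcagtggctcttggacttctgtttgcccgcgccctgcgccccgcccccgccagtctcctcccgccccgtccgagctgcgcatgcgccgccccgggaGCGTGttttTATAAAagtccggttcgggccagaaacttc
Ackr3, chr1:90203730-90203979, plus strand: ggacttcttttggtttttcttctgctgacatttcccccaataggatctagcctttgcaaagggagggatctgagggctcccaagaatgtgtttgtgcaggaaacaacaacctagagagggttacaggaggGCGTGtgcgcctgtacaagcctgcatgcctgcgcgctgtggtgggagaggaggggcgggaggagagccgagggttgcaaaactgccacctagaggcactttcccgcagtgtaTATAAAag

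The Cxcr4 and Ackr3 windows each held 1 GCGTG, starting 39 and 120 bases before the start site, and 1 TATAAA, starting 30 and 8 bases before it. The Cxcl12 window held neither, and held 1 GGCGCC starting 123 bases before the start site. No 2 of these matches overlapped. Of 27025 promoter windows of the same length, 38.6% held ACGTG or GCGTG, 9.54% GGCGCC and 8.12% TATAAA, so these are common letters and the matches describe the windows only.

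The Alk1 ECKO library held 5308 barcodes and 62728605 UMIs (unique molecular identifiers, the counted molecules), and the control library 8739 barcodes and 54800465 UMIs. After cell filters and doublet removal, 4093 Alk1 ECKO and 7409 control cells were retained, of which 14 shared a barcode sequence with a cell of the other library. Clusters with a median mitochondrial share under 1% were set aside from every class and held 32.6% of the retained Alk1 ECKO barcodes and 0.405% of the control ones. Classes were named from marker genes, so "endothelial" stands for endothelial-like and so on. The endothelial class held 1274 Alk1 ECKO and 315 control cells, with 38537161 and 10503148 UMIs. Acvrl1, which encodes ALK1, was at 118 CPM (the gene's share of all UMIs of the class, scaled as counts per 1e6) in Alk1 ECKO and 115 CPM in control endothelial cells. In the same cells rod markers summed to 34.4 CPM in Alk1 ECKO and 138 CPM in control, and mural markers to 782 CPM in Alk1 ECKO and 779 CPM in control, and the part of either in the differences below was not tested. A 3' tag outside the deleted exons, which the labels do not name, checks neither the deletion nor the label.

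Cxcl12, the ligand, was found in 3 classes. In astrocytes it was at 312 CPM (248 to 389, 80 UMIs in 17 of 19 cells) in Alk1 ECKO and at 398 CPM (319 to 490, 88 UMIs in 21 of 21 cells) in control. Endothelial cells had 43.3 CPM (41.3 to 45.5, 1670 UMIs in 282 cells) in Alk1 ECKO and 90.3 CPM (84.6 to 96.2, 948 UMIs in 74 cells) in control. Amacrine cells, inhibitory interneurons of the inner retina, had 26.6 CPM (7.25 to 68.2, 4 UMIs in 2 of 22 cells) in Alk1 ECKO and 17.5 CPM (10.96 to 26.5, 22 UMIs in 12 of 172 cells) in control. The order was the same in both libraries, and only the intervals of the endothelial and amacrine levels in Alk1 ECKO overlapped.

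No Cxcl12 UMI was counted in mural cells (148 Alk1 ECKO and 11 control cells), in microglia or macrophages (193 and 50 cells), in Müller glia or late progenitors (178 and 633 cells), in cones (18 and 192 cells) or in other leukocytes (17 and 2 cells). By the limit of 3 counts these zeros allow up to 1.252 CPM in Alk1 ECKO and 20.8 CPM in control mural cells, so the control limit is wide. Bipolar cells, rods and neurogenic precursors had no Cxcl12 UMI in Alk1 ECKO and 1 each in control. Because a class is weighted by its number of cells, 85.9% of all Cxcl12 UMIs lay in endothelial cells in both libraries, and astrocytes held 4.12% of them in Alk1 ECKO and 7.98% in control.

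Cxcr4, the signalling receptor, was at its highest level among the named classes of Alk1 ECKO in endothelial cells, at 55.9 CPM (53.6 to 58.3, 2155 UMIs in 556 cells), against 22.4 CPM (19.6 to 25.4, 235 UMIs in 87 cells) in control endothelial cells. Müller glia or late progenitors were named from glial and progenitor genes of the neural retina. Clusters led by histone or mitosis genes stayed outside this class. Müller glia or late progenitors had 17.2 CPM (9.85 to 27.99, 16 UMIs in 16 of 178 cells) in Alk1 ECKO and 25.04 CPM (20.4 to 30.4, 102 UMIs in 93 of 633 cells) in control. In control the levels of these 2 classes were not separated, since their intervals overlap. Müller glia or late progenitors held 26.4% of all Cxcr4 UMIs in control and 0.620% in Alk1 ECKO. These shares also depend on cell numbers. Endothelial cells made up 31.1% of retained cells in Alk1 ECKO and 4.25% in control, and Müller glia or late progenitors 4.35% and 8.54%. The log2 ratio of Cxcr4 in Müller glia or late progenitors was -0.54 (-1.40 to 0.23), with an interval that spans 0. In that class 3.67% of 9885 measured genes were at least 1.5-fold higher and 21.2% at least 1.5-fold lower.

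Mural cells, the pericytes and smooth muscle of vessels, had 15.4 CPM of Cxcr4 in Alk1 ECKO (10.9 to 21.3, 37 UMIs in 33 of 148 cells) and 13.9 CPM in control (1.68 to 50.1, 2 UMIs in 2 of 11 cells). Other leukocytes of the Alk1 ECKO library had 49.8 CPM (18.3 to 108, 6 UMIs in 4 of 17 cells). This interval takes in the endothelial level. The class had only 2 control cells, which held no Cxcr4 UMI. Microglia or macrophages were low, at 3.72 CPM (1.86 to 6.66) in Alk1 ECKO and 2.84 CPM (0.344 to 10.2) in control. Neurogenic precursors had 1.97 CPM (1 UMI) in Alk1 ECKO and 6.73 CPM (13 UMIs) in control. Rods, which served as the class that should lack the gene, had no Cxcr4 UMI in 361 Alk1 ECKO cells and 2 in 2245 control cells (0.204 CPM). Amacrine cells and cones had none in either library, and bipolar cells had 1 UMI in Alk1 ECKO and 2 in control.

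Astrocytes had 31.2 CPM of Cxcr4 in Alk1 ECKO (8 UMIs) and 9.04 CPM in control (2 UMIs). Of the 8 Alk1 ECKO UMIs, 6 lay in 1 cell of 75880 UMIs. The same cell held both Ackr3 UMIs of the class, all 28 of its Pecam1 UMIs and 37 of its 39 Cdh5 UMIs beside 36 Gfap UMIs. It thus carried endothelial and astrocyte transcripts together, and it also held 16 of the 80 Cxcl12 UMIs. Without the cell with the most Cxcl12 UMIs in each library, the astrocyte log2 ratio of Cxcl12 was 0.01 (-0.50 to 0.50), against -0.35 (-0.80 to 0.10) with all cells. In astrocytes 13.9% of 2708 measured genes were at least 1.5-fold higher and 16.6% at least 1.5-fold lower.

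Ackr3, the scavenging receptor, had 10.9 CPM (9.86 to 11.97, 419 UMIs in 168 cells) in Alk1 ECKO endothelial cells and 1.52 CPM (0.871 to 2.47, 16 UMIs in 10 cells) in control endothelial cells. Mural cells had 9.18 CPM (5.76 to 13.9, 22 UMIs in 17 cells) in Alk1 ECKO and 6.93 CPM (0.175 to 38.6, 1 UMI) in control. The endothelial and mural intervals overlapped in both libraries. In the remaining classes the highest level was 7.81 CPM in Alk1 ECKO astrocytes, from the single cell described above, and 1.59 CPM (2 UMIs) in control amacrine cells. No Ackr3 UMI was counted in rods of either library.

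**Figure D1:**
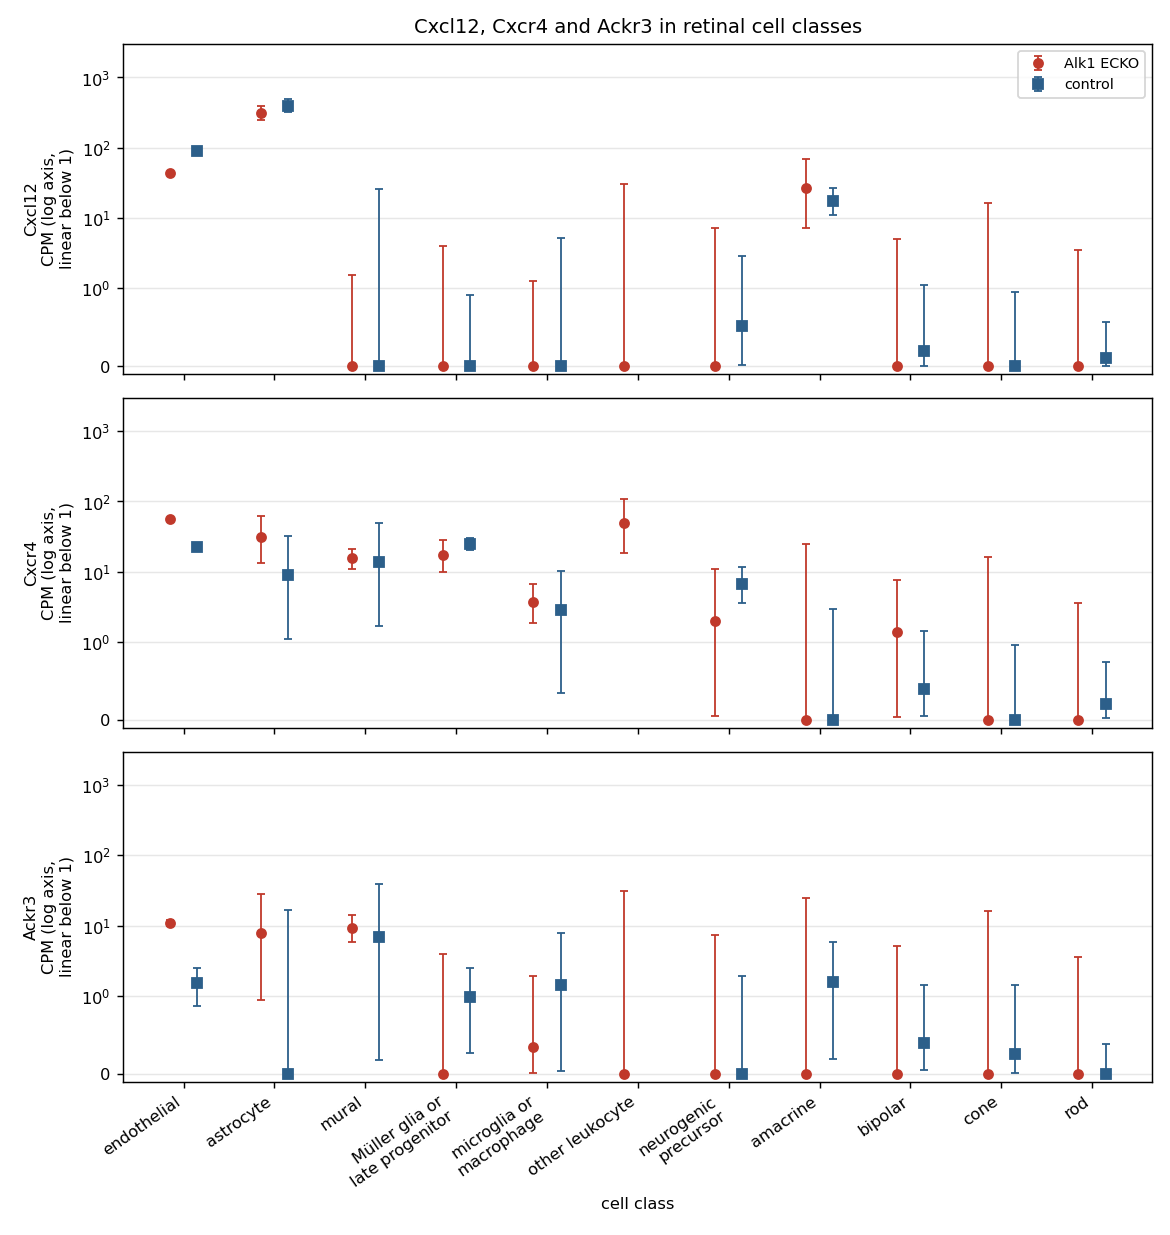
Level of each gene (CPM, log axis that is linear below 1) in 11 cell classes; points are Alk1 ECKO, squares control, bars 95% Poisson intervals, and classes with under 10 cells in a library are left out. Cxcl12 stands highest in astrocytes at 312 CPM in Alk1 ECKO and 398 CPM in control, while Cxcr4 and Ackr3 are higher in Alk1 ECKO than in control endothelial cells.

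The comparison of genotypes within the endothelium asks how the ligand and its receptors differ where Alk1 is labelled as deleted. Over all endothelial cells the log2 ratio (Alk1 ECKO over control) was -1.06 (-1.17 to -0.94) for Cxcl12, 1.32 (1.13 to 1.52) for Cxcr4 and 2.84 (2.12 to 3.66) for Ackr3. The ligand was thus at 0.480 of its control level, Cxcr4 2.50-fold and Ackr3 7.14-fold higher. All 3 lay past 1.5-fold, a size that 5.76% of 12536 measured genes exceeded upward and 20.9% downward, with a median log2 ratio of -0.22 over all of them. A gene counted as measured with at least 30 UMIs over both libraries. In these sums fewer cells carrying a transcript and fewer transcripts per cell cannot be told apart.

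To set the number of cells apart from depth, every cell was thinned to 2000 UMIs and shallower cells were left out (168 Alk1 ECKO and 10 control endothelial cells, 130 and 363 rods). A Cxcl12 UMI was then held by 7.69% of Alk1 ECKO (6.18 to 9.42) and 10.5% of control endothelial cells (7.29 to 14.5). For Cxcr4 the shares were 10.9% (9.16 to 12.9) in Alk1 ECKO and 5.90% (3.53 to 9.17) in control. For Ackr3 they were 1.54% (0.898 to 2.45) in Alk1 ECKO and 0 of 305 cells in control, which allows up to 0.984% by the limit of 3 counts and 1.20% by the exact interval. The intervals of the 2 libraries overlapped for all 3 genes, for Cxcr4 only at their ends. At 5000 UMIs they did not overlap for Cxcr4, at 20.2% (17.7 to 23.0) in Alk1 ECKO and 11.7% (8.26 to 15.997) in control, or for Ackr3, at 4.86% (3.57 to 6.46) in Alk1 ECKO and 0 of 290 cells (exact limit 1.26%) in control. For Cxcl12 they were 12.97% (10.9 to 15.3) in Alk1 ECKO and 12.8% (9.14 to 17.2) in control. In rods none of 231 Alk1 ECKO cells held a UMI of any of the 3 genes, and 1 of 1882 control cells (0.0531%) held one of Cxcl12 and 1 one of Cxcr4. Median depths before thinning were 16251 UMIs in Alk1 ECKO and 19370 in control endothelial cells over all cells of the class, and 2209 and 2790 in rods. In the endothelial cells used at 2000 UMIs the medians were 21242 in Alk1 ECKO and 19777 in control. Thinning to 5000 UMIs left out 349 Alk1 ECKO and 25 control endothelial cells, and the medians of those used were 29130 and 20871.5. Unthinned, the shares in Alk1 ECKO endothelial cells were 22.1% for Cxcl12, 43.6% for Cxcr4 and 13.2% for Ackr3. In control endothelial cells they were 23.5%, 27.6% and 3.17%.

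Cxcl12 was held by few endothelial cells at high levels. In Alk1 ECKO 40 of 1274 cells (3.14%) exceeded 500 CPM and held 43.3% of the endothelial Cxcl12 UMIs. In control 26 of 315 cells (8.25%) did, and they held 86.4% of the UMIs. The limit of 500 CPM was chosen after the values were seen, and a shallow cell passes it with fewer UMIs than a deep one.

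The endothelial cells fell into 10 sub-clusters, formed without the 3 genes. The arterial sub-cluster, named from Gja4, Stmn2, Fbln5 and Vegfc, held 26 Alk1 ECKO and 19 control cells. It made up 2.04% of the endothelial cells in Alk1 ECKO and 6.03% in control, and held 21.9% of the endothelial Cxcl12 UMIs in Alk1 ECKO and 42.2% in control. Cxcl12 was at 776 CPM (699 to 860, 366 UMIs in 24 cells) in its Alk1 ECKO cells and at 1272 CPM (400 UMIs in 18 cells) in its control cells, a log2 ratio of -0.71 (-0.92 to -0.50). Single cells ranged up to 3797 CPM with a median of 575 in Alk1 ECKO, and up to 8405 CPM with a median of 872 in control. The cells of the 2 libraries overlapped up to 3797 CPM. The lower and upper quartiles were 243 and 995 CPM in Alk1 ECKO, and 495 and 1899 CPM in control. In this sub-cluster 14.2% of 4140 measured genes were at least 1.5-fold higher and 7.80% at least 1.5-fold lower. The summed level of the arterial marker list was also lower there, at 4132 CPM in Alk1 ECKO and 6222 CPM in control. Mural cells summed to 3615 CPM of this list in Alk1 ECKO and 5452 CPM in control, so the sum is not particular to arterial cells. The part of the list in the Cxcl12 difference was not tested. All 7 astrocyte markers were at 0 in the control arterial cells and 6 of 7 in the Alk1 ECKO ones (2.12 CPM in sum), against 2660 CPM in Alk1 ECKO and 3038 CPM in control astrocytes.

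The other sub-clusters did not share one direction for the ligand. Capillary cells of barrier type, named from genes such as Slco1c1, Spock2 and Mfsd2a, had 130 CPM of Cxcl12 (105 to 160, 89 UMIs in 11 of 28 cells) in Alk1 ECKO and 76.6 CPM (68.3 to 85.5, 314 UMIs in 38 of 143 cells) in control, a log2 ratio of 0.77 (0.41 to 1.11). There 6.51% of 9190 measured genes were at least 1.5-fold higher and 12.5% at least 1.5-fold lower. With mitochondrial shares limited to 5%, which also moved cells between clusters, this ratio was -0.00054 (-0.39 to 0.37). An unnamed sub-cluster led by Six3os1 and Aqp1, with haemoglobin genes also among its leading genes, had 82.3 CPM (61.3 to 108, 51 UMIs in 20 of 29 cells) in Alk1 ECKO and 5.80 CPM (1.20 to 17.0, 3 UMIs in 3 of 22 cells) in control. Its log2 ratio was 3.83 (2.20 to 6.15), beside 16% of 5474 measured genes higher and 13.1% lower by 1.5-fold, and rests on 3 control UMIs.

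Dividing cells in S phase had 17.1 CPM of Cxcl12 (14.8 to 19.6, 43 of 172 cells) in Alk1 ECKO and 55.6 CPM (48.4 to 63.6, 11 of 57 cells) in control, a log2 ratio of -1.70 (-1.99 to -1.42), where 4.73% of 10837 measured genes were 1.5-fold higher and 18.8% lower. In control 4 of the 57 cells exceeded 500 CPM and held 91.6% of the 214 UMIs, and no Alk1 ECKO cell exceeded that level, so the ratio rests on these 4 cells. Without only the highest cell of each library it was -1.36 (-1.68 to -1.03). Tip cells were low in the ligand, at 6.96 CPM in Alk1 ECKO and 10.1 CPM in control, where all 8 UMIs came from 1 cell. A shallow unnamed sub-cluster led by the mural genes Rgs5 and Higd1b had 101 CPM in 183 Alk1 ECKO cells and no Cxcl12 UMI in 13 control cells, at least 2.32-fold higher against a floor of 3 UMIs over the control cells. Of its 244 UMIs, 113 lay in 1 cell. Its summed mural markers were at 1169 CPM in Alk1 ECKO and 857 CPM in control, against 18188 CPM in Alk1 ECKO mural cells, which held no Cxcl12 UMI.

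With the 7 sub-clusters that had at least 10 cells in each library weighted alike in Alk1 ECKO and control, the log2 ratio of Cxcl12 was 0.024, against -1.06 with the makeup as found. The same step left Cxcr4 at 1.06 and Ackr3 at 2.05. The 7 include the one led by Rgs5 and Higd1b, whose 13 control cells held no Cxcl12 UMI. In its Alk1 ECKO cells 113 of 244 Cxcl12 UMIs lay in 1 cell. The part of this sub-cluster in the value of 0.024 was not tested. Those 7 sub-clusters held 97.8% of control but only 55.5% of Alk1 ECKO endothelial cells. The rest of the Alk1 ECKO cells lay mainly in a sub-cluster led by Apod and Trf (253 Alk1 ECKO and 4 control cells), a shallower one led by Apod and Rarres1 (140 and 3 cells) and one rich in MHC class II genes (174 and 0 cells). In Alk1 ECKO the first had 58.2 CPM of Cxcl12, the second 4.71 CPM and the MHC class II cells 52.9 CPM. The MHC class II cells also had 7398 CPM of the arterial marker list and 905 CPM of the microglial one. Mgp, Fbln2 and Sema3g of the arterial list are among the genes that lead these cells, so this sum does not show them to be arterial. Without the arterial sub-cluster the log2 ratio over the other endothelial cells was -0.65 (-0.80 to -0.50). Outside the arterial sub-cluster, 24 Alk1 ECKO and 12 control cells exceeded 500 CPM of Cxcl12, with median depths of 7845 and 20958 UMIs. The summed arterial markers of these cells were at 3179 CPM in Alk1 ECKO and 2365 CPM in control. In cells with no Cxcl12 UMI they were at 401 CPM (990 Alk1 ECKO cells) and 367 CPM (240 control cells).

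**Figure D2:**
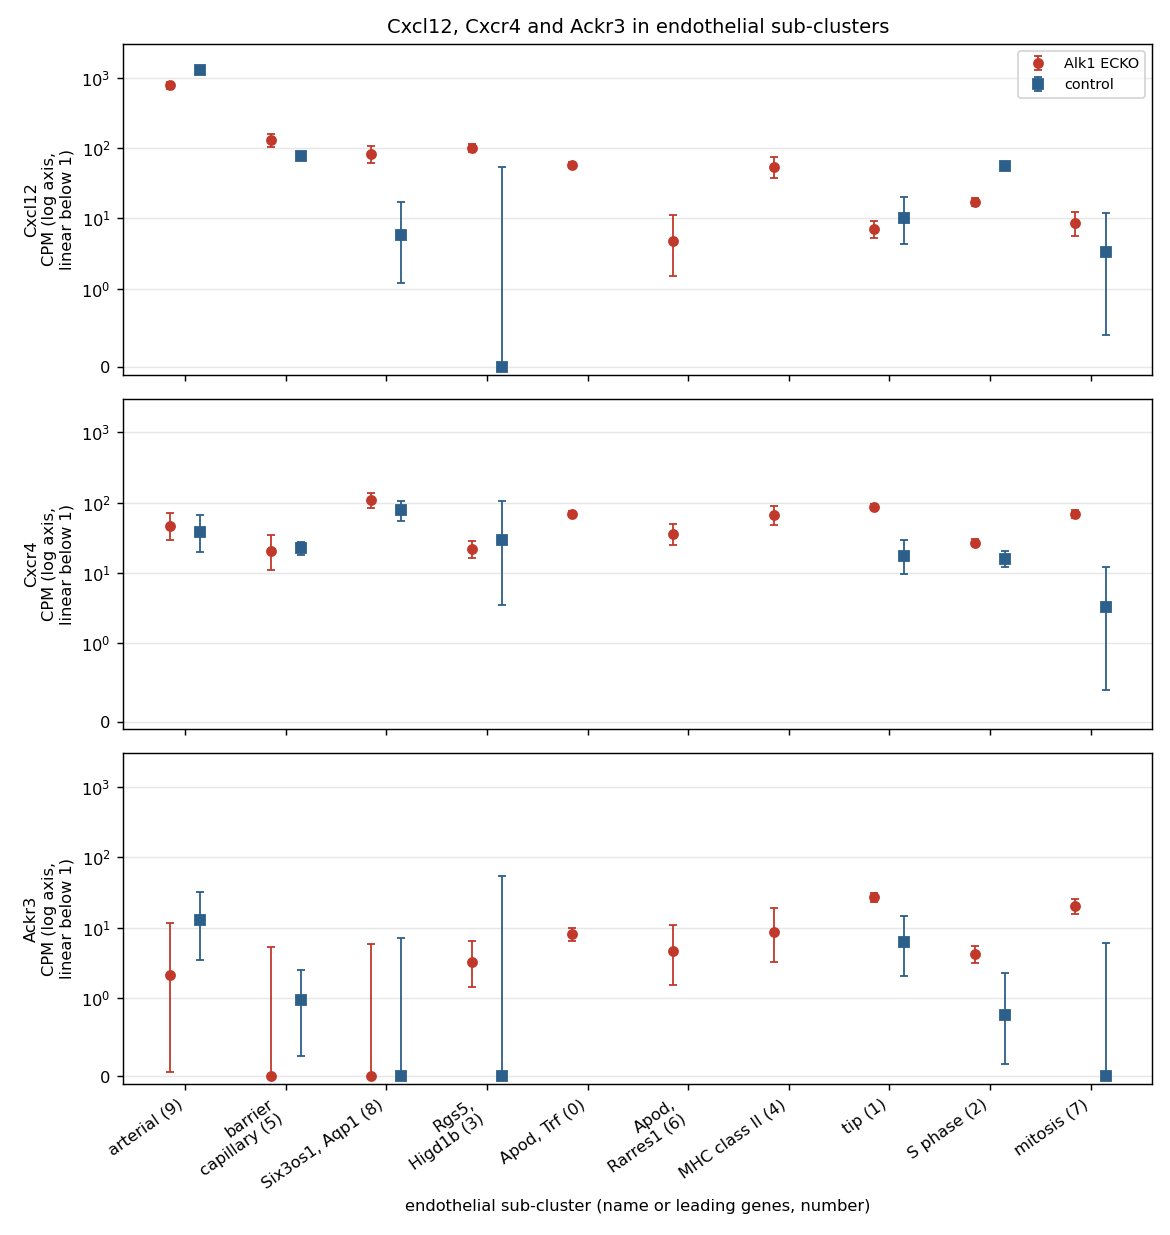
Level of each gene (CPM, log axis that is linear below 1) in 10 endothelial sub-clusters, with 95% Poisson intervals; points are Alk1 ECKO, squares control, and groups of under 10 cells are left out. Cxcl12 peaks in the arterial sub-cluster in both libraries (776 CPM in Alk1 ECKO, 1272 CPM in control), and Ackr3 in the tip and mitosis sub-clusters of Alk1 ECKO.

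Cxcr4 in Alk1 ECKO was highest in the unnamed sub-cluster led by Six3os1 and Aqp1, at 110 CPM (85.2 to 139, 21 of 29 cells), against 77.4 CPM (55.3 to 105, 16 of 22 cells) in its control cells. The tip sub-cluster, named from Kcne3, Angpt2, Esm1 and other sprout genes, followed with 88.0 CPM (81.4 to 94.9, 657 UMIs in 114 of 204 cells) in Alk1 ECKO and 17.7 CPM (9.69 to 29.7, 14 UMIs in 3 of 26 cells) in control, and the intervals of these 2 Alk1 ECKO levels overlap. The control tip interval took in the level over all control endothelial cells, so no raised level was seen in control tip cells. It also lay below the interval of the control cells led by Six3os1 and Aqp1. In single tip cells the median was 29.0 CPM and the highest 777 CPM in Alk1 ECKO, and the median was 0 and the highest 146 CPM in control. The tip log2 ratio was 2.31 (1.55 to 3.19), beside 12.9% of 9666 measured genes at least 1.5-fold higher and 18.1% at least 1.5-fold lower. After thinning, 16.7% of Alk1 ECKO (34 of 204) and 4.0% of control tip cells (1 of 25) held a Cxcr4 UMI, with overlapping intervals. Without the cell with the most UMIs in each library the ratio was 3.60 (2.37 to 5.23), since 9 of the 14 control UMIs lay in 1 cell.

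Of the 7 sub-clusters with at least 10 cells per library, Cxcr4 was at least 1.5-fold higher in 3 and lower by that size in 0. Besides the tip cells these were the S-phase cells, at 27.1 CPM in Alk1 ECKO and 15.9 CPM in control (log2 ratio 0.77, 0.37 to 1.19), and the mitotic cells, at 69.1 CPM (220 UMIs in 36 of 65 cells) in Alk1 ECKO and 3.33 CPM (2 UMIs in 1 of 28 cells) in control. The mitotic log2 ratio, 4.38 (2.51 to 7.43), rests on these 2 control UMIs, and 15% of 8167 measured genes were 1.5-fold higher and 15.7% lower there. Arterial cells had 46.7 CPM in Alk1 ECKO and 38.2 CPM in control (log2 ratio 0.29, -0.79 to 1.44), and barrier capillary cells 20.5 CPM in Alk1 ECKO and 22.7 CPM in control (-0.15, -1.07 to 0.67). Both intervals span 0. For barrier capillary cells the direction turned in 6 of 8 alternatives, to 1.09 (0.39 to 1.76) with mitochondrial shares up to 5% and 0.65 (0.06 to 1.21) at Leiden resolution 1.5, so no direction is given for them. Sub-clusters found almost only in Alk1 ECKO had 70.0 CPM (Apod and Trf), 35.8 CPM (Apod and Rarres1) and 66.1 CPM (MHC class II). The first of these held 33.6% of the endothelial Cxcr4 UMIs of that library and the tip cells 30.5%.

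Ackr3 was highest in the tip and mitotic cells of the Alk1 ECKO library. Tip cells had 27.2 CPM (23.6 to 31.2, 203 UMIs in 70 of 204 cells) in Alk1 ECKO and 6.33 CPM (2.06 to 14.8) in control, where all 5 UMIs lay in 1 of 26 cells. The log2 ratio was 2.10 (0.86 to 3.74). Mitotic cells had 20.1 CPM (15.5 to 25.7, 64 UMIs in 17 of 65 cells) in Alk1 ECKO and no UMI in 28 control cells, at least 4.02-fold higher against a floor of 3 UMIs over the control cells. S-phase cells had 4.22 CPM in Alk1 ECKO and 0.780 CPM (3 UMIs) in control, a log2 ratio of 2.44 (0.81 to 4.76). Tip cells alone held 48.4% of the endothelial Ackr3 UMIs of Alk1 ECKO while making up 16.01% of its endothelial cells.

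Next in UMIs came the sub-cluster led by Apod and Trf, which held 19.8% of the endothelial Ackr3 UMIs of Alk1 ECKO, at 8.02 CPM (6.39 to 9.95, 83 UMIs in 44 of 253 cells), and no UMI in its 4 control cells. The MHC class II cells of Alk1 ECKO had 8.82 CPM (6 UMIs), an interval of 3.24 to 19.2 CPM that takes in this level. Barrier capillary cells had no UMI in Alk1 ECKO and 4 in control, the sub-cluster led by Six3os1 and Aqp1 none in either library, and arterial cells 1 UMI (2.12 CPM) in Alk1 ECKO and 4 (12.7 CPM, 3.47 to 32.6) in control. These counts allow no ratio, and the control arterial and tip intervals overlap. The tip marker list was at 8123 CPM in Alk1 ECKO and 6277 CPM in control cells of the tip sub-cluster, and at 5725 CPM in Alk1 ECKO and 4987 CPM in control over all endothelial cells. Mural cells summed to 4951 CPM of the same list in Alk1 ECKO and 7343 CPM in control, so the sum is not particular to tip cells. The part of the list in the Cxcr4 and Ackr3 differences was not tested.

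**Figure D3:**
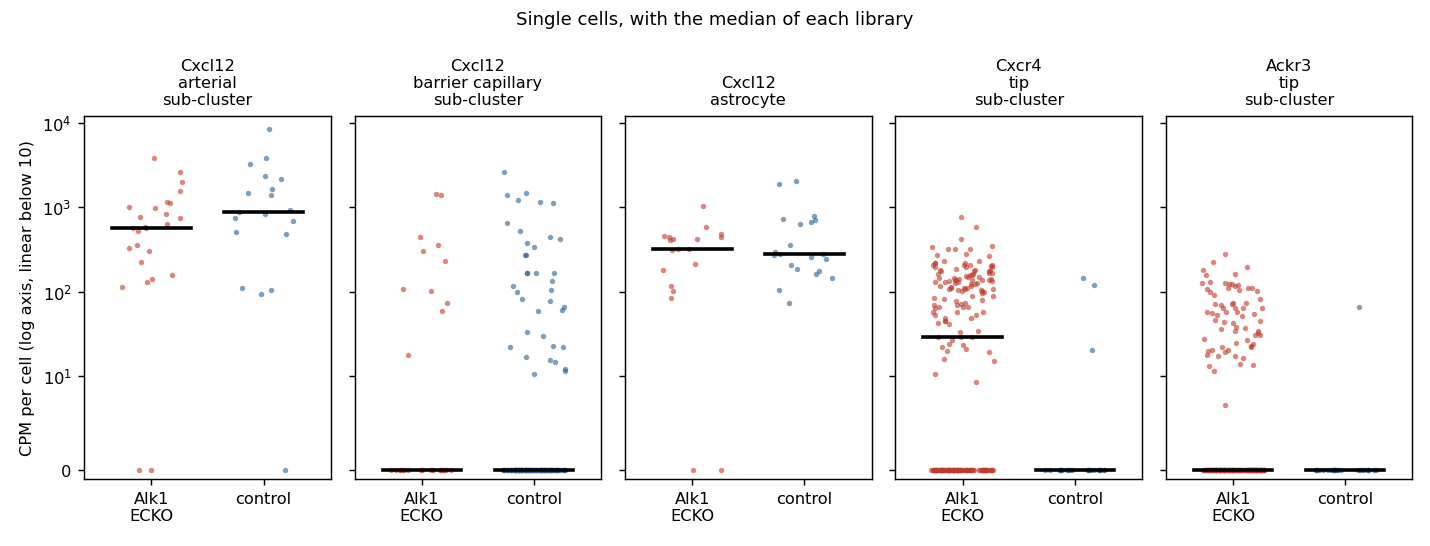
CPM of single cells (log axis that is linear below 10; 1 point per cell, black lines are medians), Alk1 ECKO left and control right. Arterial cells and astrocytes of both libraries overlap in Cxcl12, while in tip cells 114 of 204 Alk1 ECKO and 3 of 26 control cells held Cxcr4.

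**Figure D4:**
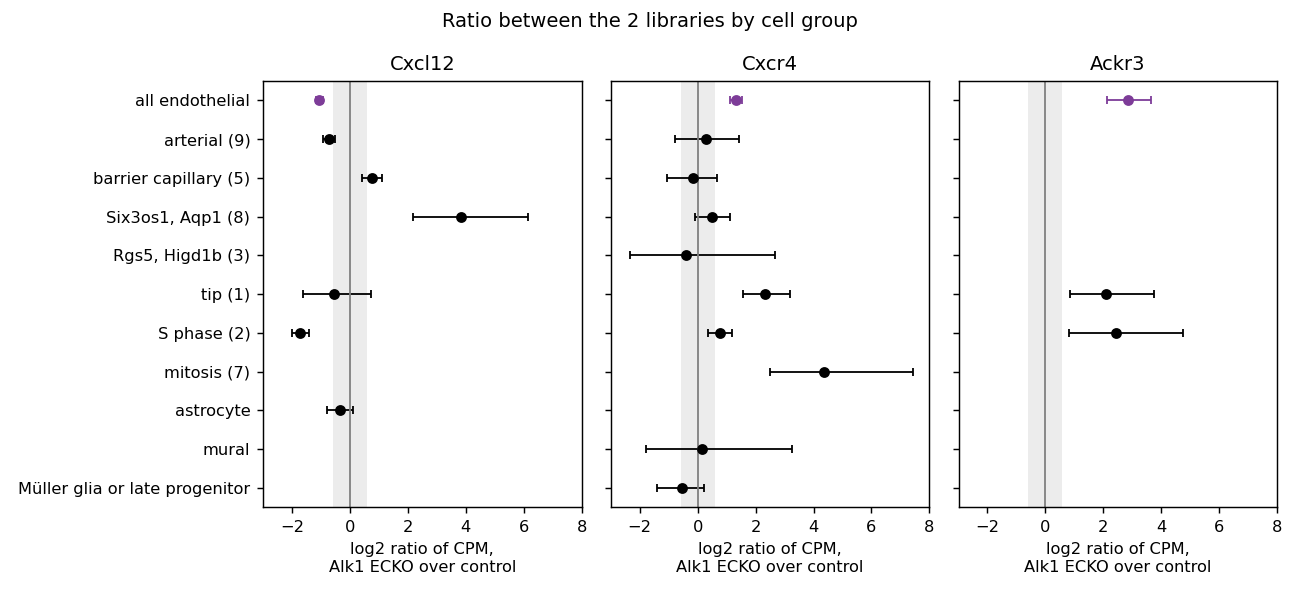
Log2 ratio of CPM (Alk1 ECKO over control) with 95% counting intervals, by cell group; the grey band marks less than 1.5-fold, and a group with too few UMIs or with none in a library has no point. Cxcl12 lies on both sides of 0 (0.77 in barrier capillary cells, -0.71 in arterial cells), whereas the Cxcr4 and Ackr3 points whose intervals leave out 0 all lie above it.

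Ligand and receptors were then counted in the same cells, each thinned to 5000 UMIs (925 Alk1 ECKO and 290 control endothelial cells). Cxcl12 and Cxcr4 were together in 23 Alk1 ECKO cells (2.49%) and 3 control cells (1.03%). In Alk1 ECKO a Cxcr4 UMI was held by 19.2% of the 120 cells with Cxcl12 (12.6 to 27.4) and by 20.4% of the 805 cells without (17.6 to 23.3), intervals that overlap. Ackr3 was held by 10.2% of the 187 Alk1 ECKO cells with Cxcr4 (6.23 to 15.4) and by 3.52% of the 738 without (2.31 to 5.12). These intervals do not overlap, over cells of 1 library that share sub-clusters. Within the tip cells of that library, thinned in a separate draw, the shares were 20.4% of 49 (10.2 to 34.3) and 7.48% of 147 (3.79 to 12.99), with intervals that overlap. None of the 290 control cells held Ackr3 in the first draw, and 1 of 25 control tip cells did in the second. In the arterial sub-cluster 22 of 23 Alk1 ECKO and 14 of 16 control cells held Cxcl12, and 6 and 1 of these held Cxcr4 as well.

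Across the 10 sub-clusters, both libraries summed, Ackr3 and Cxcr4 had a Pearson correlation of 0.45 of log2(CPM + 10), Cxcr4 and Cxcl12 one of -0.22 and Ackr3 and Cxcl12 one of -0.36. The points share libraries and depth, so these are descriptions. The 5 genes most like Cxcl12 over the 10 sub-clusters, among 7837 with at least 20 CPM in one, were Stx3 (0.94), Fam189a2, Smco4, Clic5 and Gm35167 (0.89), each highest in the arterial sub-cluster. Those most like Ackr3 were Arpc5 (0.97), Wsb2, Pxdc1, Cdk2ap2 and Capg (0.94), each highest in the tip sub-cluster. Those most like Cxcr4 were 1700123O20Rik (0.94), Dgkd and Tnfsf12, highest in the sub-cluster led by Six3os1, and Mlx and Tmed3 (0.86), highest in tip cells. Over 21 profiles of a class in a library (11860 genes), the genes most like Cxcl12 were Lmcd1 (0.97), Tes, Micall2, Eln and Pcsk6, each highest in astrocytes. For Cxcr4 they were Tagln2 (0.91), Plp2, Cdca7, Nmi and Vim, and for Ackr3 Cdc42ep5 (0.89), Aebp1, Apold1, Rhod and Lamb1.

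Most genes that act downstream of the receptors lay within 1.5-fold between the libraries. Of 35 measured genes of CXCR4 and ACKR3 transduction and desensitisation in endothelial cells, 2 were at least 1.5-fold higher, 3 lower and 30 neither, with a median log2 ratio of 0.03. Over all measured genes 5.76% were higher and 20.9% lower, with a median of -0.22. Gnai1, an inhibitory G protein subunit, was at 122 CPM in Alk1 ECKO and 52.1 CPM in control (log2 ratio 1.22, 1.10 to 1.35), and the G protein gamma subunit genes Gng5 (0.68, 0.64 to 0.71) and Gng11 (0.55, 0.51 to 0.59) came next. The ubiquitin ligase gene Itch, whose product sorts CXCR4 for degradation, was at 38.9 CPM in Alk1 ECKO and 63.1 CPM in control (-0.70, -0.83 to -0.56). The arrestin genes Arrb1 (14.5 CPM in Alk1 ECKO and 22.6 CPM in control, -0.63, -0.86 to -0.41) and Arrb2 (4.93 CPM in Alk1 ECKO and 7.52 CPM in control, -0.61, -0.995 to -0.212) were lower too.

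Among 16 measured genes for alternative ligands and for the binding or processing of CXCL12, 7 were at least 1.5-fold higher and 1 lower (median 0.16). Of all 12536 measured genes, 5.76% were higher and 20.9% lower by that size (median -0.22). Cd74, a receptor for MIF and the invariant chain of MHC class II, was at 10.7 CPM in Alk1 ECKO and 0.666 CPM in control (4.01, 2.95 to 5.33). It is one of the genes that lead the MHC class II cells, of which 174 came from Alk1 ECKO and 0 from control. Adm, the peptide adrenomedullin, which ACKR3 also takes up, was at 126 CPM in Alk1 ECKO and 27.9 CPM in control (2.17, 2.00 to 2.35). Dpp4, a protease that inactivates CXCL12, was at 9.45 CPM in Alk1 ECKO and 4.28 CPM in control (1.14, 0.69 to 1.62). The lowest ratio was that of the heparan sulfate proteoglycan gene Sdc1 (5.48 CPM in Alk1 ECKO and 10.2 CPM in control, -0.90). Next came the heparan sulfate synthesis genes Ext2 (-0.34) and Ndst1 (-0.27). The other measured genes of these 2 kinds were higher or had intervals that span 0. Sdc2 had 0.98 (0.38 to 1.63), Sdc4 0.94 (0.23 to 1.74) and Ext1 0.16. Sdc3 (0.11, -0.06 to 0.28) and Hspg2 (-0.03, -0.09 to 0.02) had intervals that span 0.

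Of 27 other chemokines and chemokine receptors, 10 were measured in endothelial cells. Of these, 3 were at least 1.5-fold higher and 3 lower (median 0.18), beside 5.76% and 20.9% of all measured genes (median -0.22). Ccl2, which recruits monocytes, was at 0.493 CPM (19 UMIs) in Alk1 ECKO and 4.86 CPM (51 UMIs) in control (-3.30, -4.14 to -2.51). Cxcl10, an interferon-induced chemokine, was at 0.960 CPM in Alk1 ECKO and 3.52 CPM in control, with 37 UMIs in each library (-1.88, -2.57 to -1.18). The membrane-bound chemokine gene Cx3cl1 was also lower (6.07 CPM in Alk1 ECKO and 9.52 CPM in control, -0.65). The higher members were Cx3cr1 (39 UMIs in Alk1 ECKO and 4 in control, 1.41, -0.06 to 3.36), Cxcl2 (0.98, 0.57 to 1.42) and Cxcl16 (0.61, 0.03 to 1.23). Cx3cr1 is a microglial gene, and the 36 microglial markers summed to 199 CPM in Alk1 ECKO (3 at 0) and 149 CPM in control endothelial cells (11 at 0), whose part in this ratio was not tested.

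**Figure D5:**
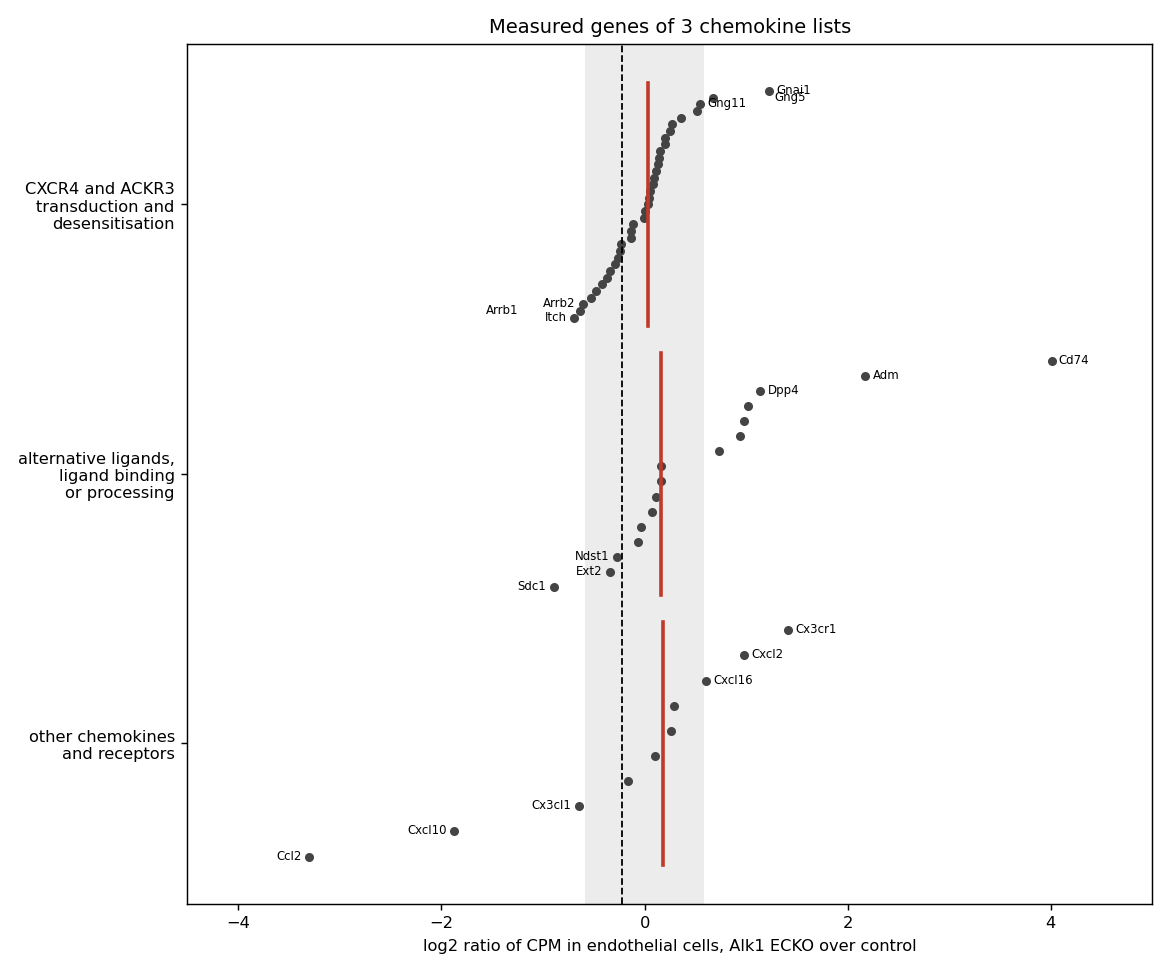
Log2 ratio (Alk1 ECKO over control) in endothelial cells of the measured genes of 3 chemokine lists, 1 point per gene ordered by ratio; red lines are list medians (0.03, 0.16 and 0.18 from top to bottom), the dashed line the median of all measured genes (-0.22) and the grey band less than 1.5-fold. Most transduction genes lie inside the band, and Cd74, Adm, Ccl2 and Cxcl10 lie farthest outside it.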

How the data were processed

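Each deposited matrix gives raw UMI counts by gene and barcode, made by the authors with Cell Ranger (5.0.1 per the file headers, 6.1.1 per the submitters' processing notes, which also name FastQC 0.11.9 and mm10) from 10x Genomics Chromium 3' libraries, per the labels' protocols. The setting for intronic reads and the rule that chose barcodes are not stated in the labels or headers used. Barcodes were retained from 1000 UMIs and 500 genes upward, provided that mitochondrial transcripts made up no more than 10%. Scrublet (scanpy 1.11.5) marked 2 Alk1 ECKO and 0 control cells at its automatic threshold, so the highest scores were removed at 0.8% per 1000 cells (144 Alk1 ECKO and 500 control cells). Both libraries were clustered together (3000 variable genes without the 3 genes, 30 components, 15 neighbours, Leiden resolution 1.0, leidenalg 0.10.2; endothelial cells again at 0.6). A cluster needed 3 markers among its top 20 genes for a name. A cluster was set aside where its median mitochondrial share lay below 1%, where its median doublet score exceeded 0.12, or where its top 10 genes held 2 markers of a different class (1496 Alk1 ECKO and 1067 control cells), and 115 and 1363 cells stayed unnamed.

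UMIs were summed per class and library. Intervals are exact Poisson (levels), exact conditional binomial (ratios) and Clopper-Pearson (shares), with a floor of 3 counts. Only the ratio intervals were run on simulated counts. These were Poisson draws without the spread between cells, so they do not show how the intervals hold where few cells carry most UMIs. The genes, lists and rules for naming and setting aside were chosen with earlier results of these data known. Named beside the 3 genes and Acvrl1 are the 3 highest and 3 lowest measured genes of each list, the 5 genes most like each member, and cluster markers. The other measured heparan sulfate genes are named beside Sdc1. Cxcl11 is not analysed here.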

Additional observations from a re-analysis of the deposited data

Results flagged for a closer look

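Cxcl12 differed in direction between endothelial groups of the same 2 libraries. It was lower in Alk1 ECKO than in control over all endothelial cells, yet higher in barrier capillary cells (sub-cluster 5), with a log2 ratio of 0.77, and in the sub-cluster led by Six3os1 and Aqp1 (sub-cluster 8), with a log2 ratio of 3.83. The difference between these groups was not tested.

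Signal of the receptors also lay in Alk1 ECKO clusters outside the classes compared. Cluster 0, with 1172 Alk1 ECKO and 0 control barcodes, a median mitochondrial share of 0.404% and erythroid beside endothelial genes, had 38.1 CPM of Cxcr4 (31.6 to 45.7, 118 UMIs), 20.7 CPM of Ackr3 (15.9 to 26.4, 64 UMIs) and 8.72 CPM of Cxcl12 (27 UMIs). Cluster 27, with mural and endothelial markers together in 81 Alk1 ECKO and 2 control cells, had 42.3 CPM of Cxcr4 (36.9 to 48.3) in Alk1 ECKO and 14.7 CPM (2 UMIs) in control.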

How the results depend on the processing

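Of 154 values recomputed under alternatives, 113 stayed within the interval of the reported value (for list counts, within 1.5 times), 39 moved beyond it, and 2 past 1.5-fold as reported turned sign. Of all 118 log2 ratios 11 turned sign, and 7 of these stayed within intervals that span 0. The log2 ratio of Cxcl12 in endothelial cells, -1.06 as reported, was 0.024 with the same makeup of sub-clusters. That weighting counts the sub-cluster led by Rgs5 and Higd1b, which had no Cxcl12 UMI in control. The endothelial ratio of Cxcl12 was -1.20 with at least 2000 UMIs per cell and -1.37 as the mean of per-cell CPM. It was -0.84 relative to the median of all genes and -1.21 in cells chosen by 4 endothelial markers in place of clusters. It was -0.65 without the arterial sub-cluster and -1.20 without the one led by Rgs5 and Higd1b, both chosen after seeing the data. Cxcr4 in endothelial cells was 1.602 with mitochondrial shares up to 5%, 1.54 relative to the median and 1.06 with the same makeup, and Ackr3 was 2.05 with the same makeup. Cxcl12 in arterial cells was -0.41 with 2000 UMIs and -0.95 per cell. In barrier capillary cells Cxcl12 was -0.00054 with 5% and 1.21 at Leiden resolution 1.5, and Cxcr4, -0.15 as reported, was 1.09 with 5% and turned sign in 6 of 8 alternatives. Cxcl12 in S-phase cells was -2.36 per cell and -1.36 without the highest cells. Cxcr4 was 3.60 in tip cells without the highest cells and -0.0903 per cell in the sub-cluster led by Six3os1 and Aqp1. Leaving out the highest cells was chosen after seeing the data. The cause of these moves was not tested, beyond the fewer cells or other weights that an alternative gives.

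At 5000 UMIs the shares of Alk1 ECKO endothelial cells with a UMI were 12.97% for Cxcl12, 20.2% for Cxcr4 and 4.86% for Ackr3, and those of control 12.8%, 11.7% and 0, so that Cxcl12 turned from lower to slightly higher in Alk1 ECKO. Unthinned they were 22.1%, 43.6% and 13.2% in Alk1 ECKO and 23.5%, 27.6% and 3.17% in control. Of transduction genes, 5 were higher and 8 lower at a fold limit below 1.5 (12.5% and 40.9% of all measured genes), and 1 and 0 at 2-fold (2.72% and 5.89%). Of alternative ligand genes, 4 were higher and 0 lower at 2-fold, and 2 were lower at the limit below 1.5. Of other chemokine genes, 1 was higher at 2-fold, 5 were higher and 5 lower with at least 1 UMI (6.02% and 24.8% of all such genes), and 1 was lower with at least 100 UMIs (18.1%). The arterial sub-cluster was not found again with 5%, with the 3 genes left in or at resolution 1.5. No paired analysis was possible because each genotype has 1 library. Few control mural, astrocyte and arterial cells limit the precision there.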

Other observations

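Of the clusters given no class name, 2 held Cxcr4 in both libraries. A cluster led by histone genes had 70.6 CPM (3 UMIs in 6 cells) in Alk1 ECKO and 17.1 CPM (13 UMIs in 97 cells) in control, and a cluster led by mitosis genes 79.3 CPM (2 UMIs in 4 cells) in Alk1 ECKO and 35.9 CPM (11 UMIs in 48 cells) in control. The other 4, 1 of which had 3 pigment epithelium markers among its leading genes, held no Cxcr4 UMI.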
